A study of Mus musculus with 6 samples.

Results

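The guanylate-binding proteins (GBPs) examined here were the 8 genes Gbp2, Gbp3, Gbp4, Gbp5, Gbp6, Gbp7, Gbp8 and Gbp9, found by symbol among the 22386 genes of the deposited count table. The assay was RNA-seq of total RNA depleted of ribosomal RNA from MC38 cells, with 3 control-hairpin libraries (shControl) and 3 libraries in which a hairpin targets Acsl4 (shACSL4). Values of single libraries follow the order of replicates 1, 2 and 3. MC38 is a mouse colorectal cancer line, and Acsl4 encodes an enzyme that couples long polyunsaturated fatty acids to coenzyme A. The labels give the genotype of the controls as WT and that of the others as an Acsl4 knockdown, while the design text speaks of a knockout. All cells were grown in DMEM with serum and antibiotics, and no added interferon or other agent is named. The number of hairpins, clones and cultures behind the replicates was not given, so p-values measure only the spread between these libraries.

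GBPs are large GTPases of the dynamin superfamily that cells make in response to interferons. Interferons act on such genes through promoter elements called GAS and ISRE, and Irf1 and Irf9 are among the factors that act at the ISRE. The proteins assemble on the membranes of pathogens and of the vacuoles that hold them, and in mouse macrophages they help bacterial lipopolysaccharide to reach the caspase that Casp4 encodes. In the deposited annotation all 8 genes carried the GO terms for GTPase activity, GTP binding and cellular response to interferon-gamma.

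The 8 genes lay in tandem clusters on GRCm39, with 4 on the plus strand of chromosome 3 and 4 on the minus strand of chromosome 5. On chromosome 3 Gbp5 spanned 142199739 to 142228105, Gbp7 142236103 to 142255910, Gbp3 142265787 to 142278970 and Gbp2 142326363 to 142343769. On chromosome 5 Gbp8 spanned 105162016 to 105287406, Gbp9 105225496 to 105287405, Gbp4 105263633 to 105287452 and Gbp6 105418568 to 105441564. The spans of Gbp8, Gbp9 and Gbp4 overlapped on the same strand, and 99.8% of the Gbp4 span lay within each of the other two. How reads in exons shared by these 3 genes were assigned was not given. All members were annotated as protein-coding.

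Promoter sequence was available in the RefSeq promoter table (GRCm38.p6, a different build from that of the counts) for 4 of 8 members, Gbp2, Gbp3, Gbp5 and Gbp7. Gbp4, Gbp6, Gbp8 and Gbp9 were not matched. The sequences are shown because these genes rose together, as described below, and because they hold the letter patterns of the interferon elements. The patterns searched, on both strands of the 250 bases before each start, were GAAA, any 2 bases and GAAA for the ISRE core, and TTC, any 3 or 4 bases and GAA for GAS. Capitals mark the matches. Each line stops before the first annotated exon, and for Gbp2 only the ISRE core with 10 bases on each side is printed, because it lies inside an exon of a longer annotated transcript. The lines cover chr3:142530086-142530335 for Gbp7, chr3:142559794-142560015 for Gbp3, chr3:142496684-142496899 for Gbp5 and chr3:142620594-142620623 for Gbp2, all on the plus strand.
Gbp7: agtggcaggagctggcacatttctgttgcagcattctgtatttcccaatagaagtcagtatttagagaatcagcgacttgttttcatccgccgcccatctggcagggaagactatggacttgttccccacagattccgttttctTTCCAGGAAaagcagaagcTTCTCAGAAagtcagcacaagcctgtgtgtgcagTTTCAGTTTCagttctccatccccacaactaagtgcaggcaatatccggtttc
Gbp3: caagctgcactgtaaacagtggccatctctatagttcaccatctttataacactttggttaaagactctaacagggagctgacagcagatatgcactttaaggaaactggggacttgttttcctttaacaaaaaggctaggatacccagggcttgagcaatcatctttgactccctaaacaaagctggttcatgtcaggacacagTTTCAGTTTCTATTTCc
Gbp5: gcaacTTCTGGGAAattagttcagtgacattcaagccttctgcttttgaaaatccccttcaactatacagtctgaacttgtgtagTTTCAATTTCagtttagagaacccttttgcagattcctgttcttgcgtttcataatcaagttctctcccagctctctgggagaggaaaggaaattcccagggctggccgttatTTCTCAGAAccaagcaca
Gbp2: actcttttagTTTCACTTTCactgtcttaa
An ISRE core stood before a start of all 4 of these members, on the strand where it reads TTTC, 2 bases and TTTC. This compares genes with single promoters, of which 2.98% of the 32851 in the table held a core. The core began 53 bases before the start in Gbp7, 59 in Gbp2 and 165 in Gbp5. Gbp3 held 2 overlapping cores at 45 and 39 bases before its first start, and no core before its second start. The letters were identical in the Gbp7 core and in the farther Gbp3 core. GAS in its form with 3 free bases stood in Gbp5 (245 and 52 bases before the start) and Gbp7 (106 and 87 bases), against 7.02% of all promoters, and the copies nearest the start had the same letters in both genes. No ISRE match overlapped a GAS match. The form with 4 free bases was matched only before the second Gbp3 start, inside an annotated exon, against 5.85% of all promoters. A match of letters is a description and was not tested for binding here.

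The hairpin target was checked first. Acsl4 was at 191, 194 and 204 CPM (counts-per-million after TMM scaling between libraries) in the controls and at 132, 128 and 127 CPM in the shACSL4 libraries, which is 0.656 of the control level (edgeR adjusted p = 3.84e-06). Total counts per library ran from 40911698 to 47127672. Of 14289 genes tested, 29.1% passed an adjusted p under 0.05, 15.4% as higher and 13.6% as lower in shACSL4, and the median log2 fold change of all tested genes was -0.01. In bulk RNA a change in the number of expressing cells and a change in RNA per cell cannot be told apart. Markers of colorectal epithelium were nearly absent, with a summed level of 1.74 to 2.47 CPM over 10 genes in shControl and 3.64 to 4.90 CPM in shACSL4, whereas 8 fibroblast genes summed to 759 to 861 and 727 to 901 CPM. Dcn and Pdgfra carried nearly all of that sum. Dcn was lower in shACSL4 (668 ± 54.1 and 523 ± 87.3 CPM, SD, n = 3), Pdgfra was higher (123 ± 4.48 and 264 ± 12.0 CPM), and so was Pdgfrb (1.22 and 2.37 CPM). The rest were low in shControl and shACSL4, with Lum at 1.04 and 0.667 CPM and Col1a1 at 0.256 and 0.25 CPM. Col1a2 was at 0.25 and 0.459 CPM, Acta2 at 0.0891 and 0.209 CPM and Thy1 at 0.0162 and 0 CPM. The 8 myeloid markers summed to 19.0 to 22.5 CPM in shControl and 21.0 to 24.5 CPM in shACSL4, and the pan-leukocyte gene Ptprc had 2 and 8 counts in all. Cd14 and Cd68 carried most of the myeloid sum and did not pass the test, while Lyz2 was higher in shACSL4 (1.56 ± 0.351 and 4.66 ± 0.525 CPM, SD, n = 3, edgeR adjusted p = 9.26e-05). The 8 lymphocyte markers, which include Ptprc, summed to 0.170 to 0.784 and 0.486 to 1.10 CPM, and 7 endothelial markers to 0.489 to 1.21 and 0.583 to 0.773 CPM. The epithelial sums did not overlap between the groups. Of 3 tested epithelial genes, Krt20 was higher in shACSL4 (0.940 and 1.69 CPM, edgeR adjusted p = 0.0361) and Krt8 did not pass (0.701). Lgr5 was also higher (8 and 122 counts, edgeR adjusted p = 0.000111), but passed the filter on low counts only through the shACSL4 libraries. Epcam and Cdx2 were listed but absent from the deposited genes. The part of these markers in the results below was not tested.

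All 8 members were higher in shACSL4 (8 of 8 at an adjusted p under 0.05, where 29.1% of all tested genes were called and 15.4% were called higher). Their folds ran from 4.19 for Gbp2 to 14.9 for Gbp6, with a median log2 fold change of 2.93 against -0.01 over all tested genes. In each of the 8 genes every shACSL4 library lay above every control, a pattern shown in that direction by 22.0% of tested genes. Gbp5 and Gbp8 passed the filter on low counts only through the shACSL4 libraries and so had to differ. The other 6 members reached the filter level of 0.238 CPM in every control, and 6 of 6 were called higher, where 14.8% of all such genes were. All 6 rose more than 4-fold in the main fit, with Gbp2 closest to that bound. The log2 fold change of Gbp2, 2.07, ran from 1.87 to 2.21 over the alternative fits listed below. Gbp2 was therefore not above 4-fold under every alternative. A rise above 4-fold that passed the test was found in 2.11% of all tested genes. Its share among genes at the filter level in every control was not taken.

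**Figure D1:**
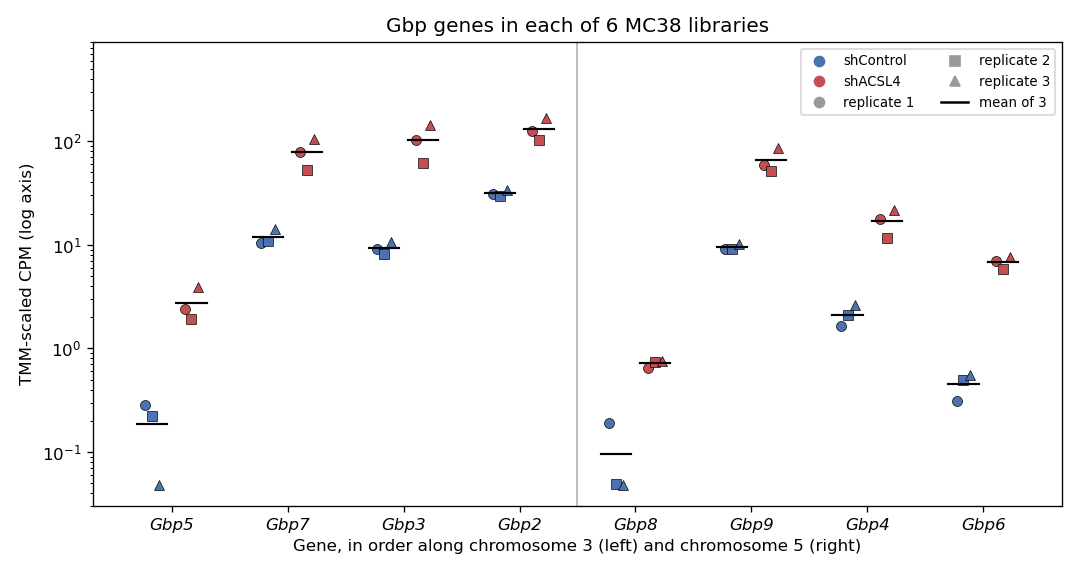
TMM-scaled CPM (log axis) of the 8 Gbp genes in each library, with genes in their order along chromosome 3 (left) and chromosome 5 (right). Points are libraries, blue for shControl and red for shACSL4, shapes give the replicate and black lines the mean of 3, and the red points lie above the blue points in each gene, with means from 0.0958 CPM for Gbp8 in shControl to 132 CPM for Gbp2 in shACSL4.

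Among the genes of chromosome 3, Gbp2 (ENSMUSG00000028270) had the highest level per length in both groups. It encodes a GBP that is anchored in membranes by a prenyl group and that mice need to control Toxoplasma. Gbp2 was at 31.2, 29.8 and 33.8 CPM in the controls and at 127, 103 and 167 CPM in the shACSL4 libraries. The lowest shACSL4 library lay well above the highest control. The control mean was 31.6 ± 2.02 CPM and the shACSL4 mean 132 ± 32 CPM (SD, n = 3). The log2 fold change of 2.07 (SE 0.187, edgeR adjusted p = 0.000646) was the smallest of the 8.

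Gbp3 (ENSMUSG00000028268), whose product is found on Toxoplasma vacuoles in mouse cells, was at 9.02, 8.08 and 10.8 CPM in the controls and at 103, 61.2 and 145 CPM in the shACSL4 libraries. The groups did not overlap, and the shACSL4 libraries differed 2.36-fold between the highest and the lowest, the widest such spread of the 8 genes. Its mean rose 11.1-fold from 9.28 ± 1.36 to 103 ± 41.6 CPM (SD, n = 3; log2 fold change 3.47, SE 0.406, edgeR adjusted p = 0.00488). Gbp7 (ENSMUSG00000040253), tied in mouse macrophages to the assembly of the phagocyte NADPH oxidase, was at 10.4, 10.8 and 14.1 CPM in the controls and at 78.0, 53.1 and 104 CPM in the shACSL4 libraries. Its groups were likewise separate, and shACSL4 2 was again the lowest of its group. The rise was 6.65-fold (log2 fold change 2.73, SE 0.313, edgeR adjusted p = 0.00358).

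Gbp5 (ENSMUSG00000105504), which promotes assembly of the Nlrp3 inflammasome in mouse macrophages, was close to the detection limit in the controls. It had 12, 9 and 2 counts in the controls and 100, 82 and 186 counts in the shACSL4 libraries. The 2 counts of shControl 3 lie under the 3 counts that a count of 0 allows, and the shACSL4 libraries were all far above. The control mean of 0.185 ± 0.122 CPM compares with 2.75 ± 1.05 CPM (SD, n = 3), a log2 fold change of 3.88 (SE 0.454, edgeR adjusted p = 6.23e-05).

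Among the genes of chromosome 5, Gbp9 (ENSMUSG00000029298) had the highest level per length in both groups. The deposited annotation places its product, with those of Gbp2, Gbp3, Gbp6 and Gbp7, on the membrane of symbiont-containing vacuoles, a term carried by 7 genes of the table. Gbp9 was at 9.14, 9.08 and 10.1 CPM in the controls and at 58.9, 51.7 and 85.2 CPM in the shACSL4 libraries. The controls lay close together, and shACSL4 3 stood above the other 2 of its group. The mean rose 6.91-fold from 9.45 ± 0.584 to 65.3 ± 17.6 CPM (SD, n = 3; log2 fold change 2.79, SE 0.204, edgeR adjusted p = 0.000125).

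Gbp4 (ENSMUSG00000079363), described in mouse as an inhibitor of Irf7-driven interferon production, was at 1.64, 2.08 and 2.62 CPM in the controls and at 17.6, 11.6 and 21.6 CPM in the shACSL4 libraries. The groups did not overlap. It rose 8.03-fold (log2 fold change 3.01, SE 0.255, edgeR adjusted p = 3.62e-05). Gbp6 (ENSMUSG00000104713), a further GBP of the parasite vacuole in mouse cells, was at 0.309, 0.489 and 0.557 CPM in the controls and at 6.90, 5.78 and 7.61 CPM in the shACSL4 libraries. Its shACSL4 libraries were within 1.32-fold of each other, and its log2 fold change of 3.90 was the largest of the 8, beside 3.88 for Gbp5 (SE 0.228, edgeR adjusted p = 1.7e-07). The Gbp6 value is uncertain, because 64.5% of the 100-base windows of its annotated transcripts also occurred in transcripts of other genes, chiefly Gm43302 (59.0%) and Gbp10 (36.3%). Gm43302 was not analysed here. The same share was 10.0% for Gbp7, nearly all of it with Gm43802, 4.39% for Gbp8 and at most 1.65% for the other 5 members. With 50-base windows the share was 70.7% for Gbp6, 18.1% for Gbp8, 12.7% for Gbp7, 8.05% for Gbp9 and 7.78% for Gbp4. It was at most 3.75% for Gbp2, Gbp3 and Gbp5. The transcripts were those of GENCODE M21, so sharing through the overlapping GRCm39 spans of Gbp8, Gbp9 and Gbp4 may be missed.

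Gbp8 (ENSMUSG00000034438) had the lowest level per length in shACSL4, with 27, 32 and 36 counts in the shACSL4 libraries and 8, 2 and 2 counts in the controls. Only shControl 1 exceeded 3 counts among the controls, and the shACSL4 libraries lay within 1.17-fold of each other in CPM. The log2 fold change was 2.86 (SE 0.538, edgeR adjusted p = 0.00164), which is 7.28-fold, or 14-fold without shControl 1. In the authors' deposited table the log2 fold changes of the 8 members ran from 2.06 for Gbp2 to 3.91 for Gbp6.

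The table held 3 further Gbp genes. Gbp10 (chromosome 5, 105363565 to 105387399) had 0, 0 and 8 counts in the controls and 19, 19 and 50 counts in the shACSL4 libraries, so that its groups did not overlap. It passed the filter only through the shACSL4 libraries and so had to differ, all 8 of its control counts were in shControl 3, and 73.5% of its 100-base windows occurred in other genes. Its edgeR adjusted p of 0.0145 went from 8.45e-05 (without shControl 3) to 0.126 (DESeq2) over the alternatives, and was 0.0506 without shControl 1 and 0.0707 without shACSL4 3. The log2 fold change of 3.29 (SE 0.865) went from 2.72 without shControl 1 to 7.82 without shControl 3, where the controls left are at 0 and the fitted value is no bound. Gbp11 had 7 counts in all controls together and 6 in all shACSL4 libraries, and Gbp2b, the neighbour of Gbp2, had 0 and 3. Both were too low to test, and each group of Gbp2b was at or under the 3 counts that a count of 0 allows. The Gbp2b promoter held an ISRE core, 137 bases before its start.

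Levels of different genes were compared per length, in the authors' FPKM values. In the controls Gbp2 led with 12.5 ± 0.68 FPKM (SD, n = 3), followed by Gbp3 with 2.83 ± 0.383, Gbp7 with 2.09 ± 0.335 and Gbp9 with 1.82 ± 0.0904 FPKM. Over the controls the range of Gbp2 stood apart from that of Gbp3, while the ranges of Gbp3 and Gbp7, and of Gbp7 and Gbp9, overlapped. Within each control library, Gbp3 was still above Gbp7 and Gbp7 above Gbp9. Gbp4 followed at 0.28 ± 0.0613 FPKM, apart from its neighbours on both sides. Gbp6, Gbp8 and Gbp5 were all under 0.1 FPKM, with ranges that overlapped between neighbours. In shACSL4 the order of the first 6 genes was the same, with Gbp2 at 52.7 ± 12.8 FPKM and Gbp3 at 31.6 ± 12.8 FPKM, and the ranges of these 2 genes now overlapped. At the low end Gbp5 (0.416 ± 0.159 FPKM) stood above Gbp8 (0.21 ± 0.0167 FPKM).

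The make-up of the summed Gbp transcripts was also set side by side. The summed FPKM of the 8 genes was 19.3, 18.4 and 21.3 in the controls and 112, 82.2 and 151 in the shACSL4 libraries. Gbp2 held 64.8%, 64.3% and 62.0% of this sum in the controls and 45.3%, 49.9% and 44.0% in the shACSL4 libraries. Gbp3 held 14.4%, 13.5% and 15.2% in the controls and 28.3%, 22.8% and 29.4% in the shACSL4 libraries. In both genes the groups were separate, with Gbp2 lower and Gbp3 higher in shACSL4. A two-sided exact permutation test over the 6 libraries gave p = 0.1 for each of these shares, the smallest that 3 against 3 allows, and 0.133 adjusted over the 8 members. Gbp7 (10.6% ± 0.981 and 12.1% ± 0.538, SD, n = 3, exact p = 0.2) and Gbp8 (exact p = 0.6) had overlapping shares, and the shares of the other 4 members were higher in shACSL4 with the groups apart. Since the shares sum to 100%, they are not independent of each other.

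**Figure D2:**
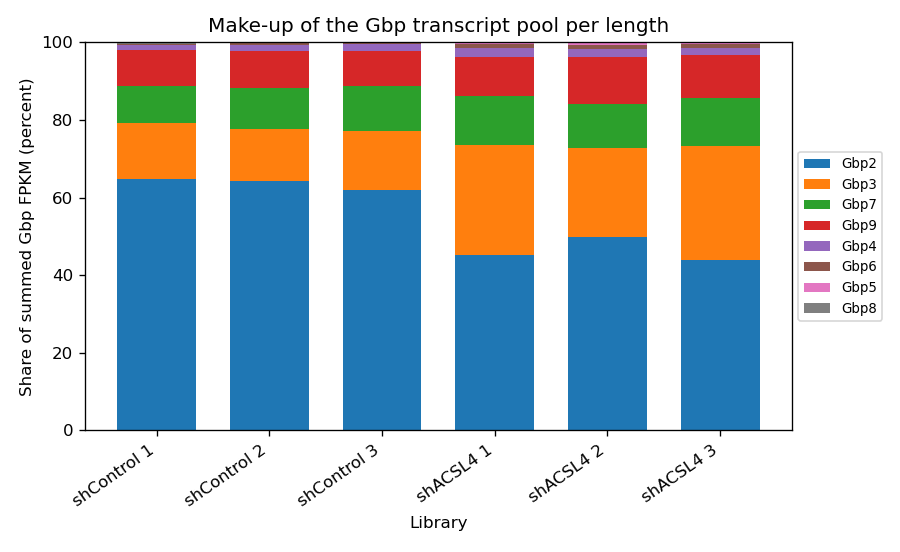
Share of the summed FPKM of the 8 Gbp genes (percent, bars stacked from 0 to 100) that each gene held in each of the 6 libraries. Gbp2 took a mean of 63.7% in shControl and 46.4% in shACSL4, and Gbp3 14.4% and 26.8%.

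The shACSL4 libraries were not alike in the size of the rise. shACSL4 3 was the highest of its group in 8 of 8 members, and shACSL4 2 the lowest in 7 of 8, Gbp8 being the exception. On the log2 scale, relative to the control mean, the median of the 8 members was 2.90, 2.54 and 3.26 in shACSL4 1, 2 and 3 and -0.04, -0.07 and 0.16 in shControl 1, 2 and 3. shACSL4 3 also had the largest total count, 47127672 against 41134232 and 42950108, and the part of depth in this pattern was not tested. Acsl4 itself was at nearly the same level in these 3 libraries, the highest being 1.04 times the lowest.

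Among 11918 other tested genes whose mean reached 1 CPM, 5 had the profile nearest to this family median over the 6 libraries, by root mean square distance on the log2 scale. They were Igtp (distance 0.0602), an interferon-inducible GTPase gene of another family, Sp100 (0.108), which encodes a nuclear body protein, Cp (0.126), which encodes ceruloplasmin, Apol9a (0.16) and Usp18 (0.169), the protease gene that removes Isg15. For comparison, the members themselves lay 0.121 (Gbp9) to 0.858 (Gbp5) from the median.

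**Figure D3:**
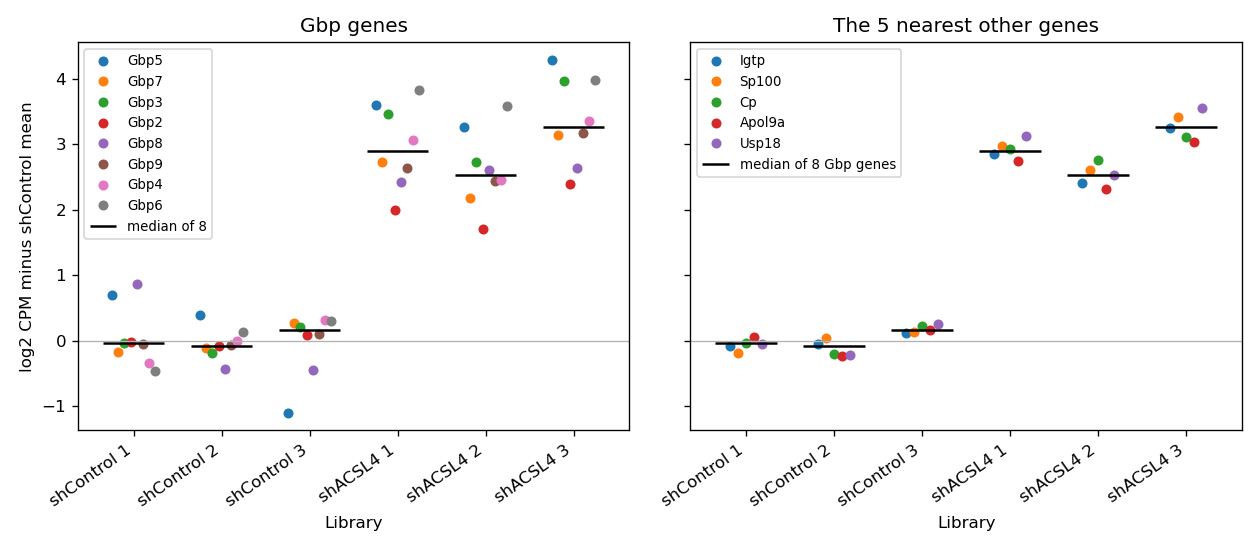
Log2 CPM minus the shControl mean in each library, for the 8 Gbp genes (left) and the 5 genes with the nearest profiles (right), with black bars at the median of the Gbp genes. In shACSL4 the median is lowest in replicate 2 (2.54) and highest in replicate 3 (3.26), and the widest scatter in the controls belongs to Gbp5 and Gbp8, which had 12 counts or fewer there.

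None of the tested genes next to the clusters was called higher, where 15.4% of all tested genes were. These neighbours, all genes within 200000 bases of the outermost Gbp genes, were chosen after the data were seen. They are too few to tell 0 from that share. On chromosome 3, edgeR called 0 of 4 tested neighbours, where 29.1% of all tested genes were called (1 lower at an unadjusted p under 0.05, and 0 with DESeq2 or limma-voom). Kyat3, which follows the cluster, was at 8.87 and 8.60 CPM in shControl and shACSL4 (edgeR adjusted p = 0.826). Gtf2b was at 40.8 and 35.5 CPM (0.0518), Pkn2 at 177 and 165 CPM (0.178) and Pdlim5 at 79.8 and 85.2 CPM (0.273). On chromosome 5, 2 of 4 tested neighbours were lower, where 13.6% of all tested genes were, and 0 were higher (also 0 at an unadjusted p under 0.05 and with DESeq2 or limma-voom). They were Lrrc8b, with a log2 fold change of -0.45 (edgeR adjusted p = 2.7e-05), and Lrrc8c, with -0.39 (0.00211), which encode subunits of a volume-regulated anion channel.

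Genes of the signalling that leads to Gbp transcription were taken from lists. Of 5 tested interferon receptor genes edgeR called 0, where 29.1% of all tested genes were called (1 higher at an unadjusted p under 0.05, and 0 with DESeq2 or limma-voom), with a median log2 fold change of 0.10. Ifnar1, a chain of the type I interferon receptor, was at 84.9 ± 3.70 and 94.2 ± 4.39 CPM (SD, n = 3, edgeR adjusted p = 0.0715), and the interferon-gamma receptor gene Ifngr1 was at 61.4 ± 4.10 and 65.7 ± 4.01 CPM (0.32). Ifnar1 was called higher under 4 of 14 alternatives, which were library size alone (adjusted p = 0.0476), the stricter filter (0.048), the replicate block (0.0388) and leaving out shControl 3 (0.013). Ifnar2 (10.3 and 10.9 CPM, adjusted p = 0.64) and Il10rb, for the shared chain of the interferon-lambda receptor (0.273 and 0.444 CPM, 0.346), did not pass either. The listed ligand genes that were present, Ifng, Ifnb1 and Ifne, were hardly detected, values picked out after they were seen. Ifng had 4 counts over the controls and 4 over shACSL4, Ifnb1 1 and 6, and Ifne 6 and 1. Ifna4, Ifnl2 and Ifnl3 were listed but absent from the deposited genes, and other interferon-alpha genes were not looked at.

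The JAK-STAT and interferon regulatory factor list holds both transducers and inhibitors. Of its 18 tested genes 12 were higher and 1 was lower, where 15.4% and 13.6% of all tested genes were. The median log2 fold change was 0.34, and the number higher ran from 8 to 13 over the alternatives. The 12 include Socs1, Socs3, Ptpn1 and Usp18, which are known to restrain this signalling. Irf9, a DNA-binding factor of the ISRE, rose 3.73-fold (edgeR adjusted p = 9.27e-05), and Stat3, a transducer of cytokines of the interleukin-6 family, rose 1.63-fold (2.38e-06). Irf1, which also acts at the ISRE, rose 1.54-fold, from 76.6 ± 4.99 to 118 ± 3.81 CPM (SD, n = 3, edgeR adjusted p = 1.02e-05). The lower gene was Cited1, named after its value was seen.

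The other interferon-inducible GTPases behaved alike in direction. Of the IRG, Gvin and Mx families 10 of 10 tested members were higher, where 15.4% of all tested genes were. Their median log2 fold change was 3.33, beside 2.93 for the Gbp genes. The difference between these medians was not tested. Tgtp1 and Gvin2 were under the filter level in at least 1 control, and so passed the filter only with the shACSL4 libraries. Ifi47 rose by 1.25 on the log2 scale, Mx1 by 3.35, Mx2 by 3.30 and Irgm2 by 3.42 (edgeR adjusted p of 3.66e-06 to 0.000771). Atlastins, dynamins and mitofusins, the GTPases of the same superfamily that shape ordinary cell membranes, had a median of 0.06. Of 9 tested, 2 were higher and 1 lower, where 15.4% and 13.6% of all tested genes were, and the number higher ran from 1 to 4 over the alternatives. Mfn2 rose by 0.34 (edgeR adjusted p = 0.000638) and Opa1 by 0.16 (0.0289), Dnm1 fell by 0.20 (0.0248), and Mfn1 was at 83.9 and 93.1 CPM (0.0661). The call of Opa1 ended without shControl 1 or 2 or any shACSL4 library (adjusted p up to 0.124), and that of Dnm1 without shACSL4 1 or 3 (up to 0.112).

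**Figure D4:**
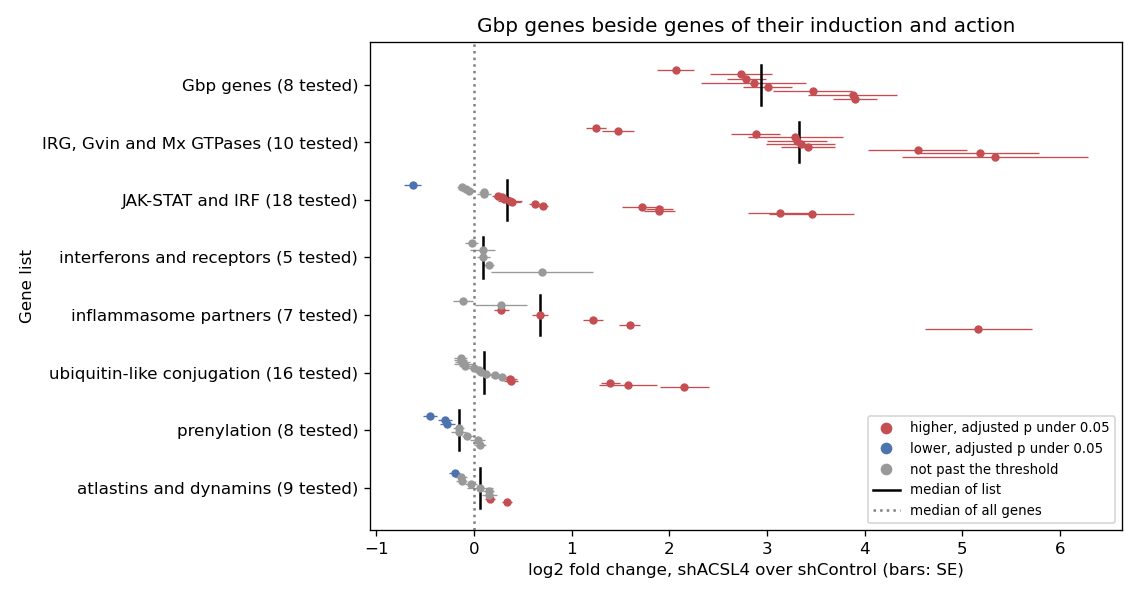
Log2 fold change of shACSL4 over shControl (x axis, bars are SE) for each tested gene of 8 lists, coloured by its call, with a black line at each list's median and a dotted line at the median of all genes (-0.01). The Gbp genes run from 2.07 to 3.90, and the interferon receptor genes do not pass the threshold and have a median of 0.10.

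Genes that act with the GBPs moved in part. Of 7 tested inflammasome partners 5 were higher, where 15.4% of all tested genes were, with a median log2 fold change of 0.67. Casp1 rose 3.02-fold, from 6.22 ± 0.486 to 18.8 ± 1.21 CPM (edgeR adjusted p = 5e-07). Casp4, the lipopolysaccharide receptor downstream of the GBPs, rose 2.32-fold from 23.2 ± 3.05 to 54.0 ± 5.15 CPM (4.59e-06), and the pore gene Gsdmd rose by 0.67 on the log2 scale (6.19e-05). Zbp1, which senses left-handed nucleic acids, rose 35.9-fold (0.00301), and the fifth gene was Ninj1, which encodes a protein that ruptures dying cells. Aim2 and Il18 were tested and did not pass (edgeR adjusted p = 0.464 and 0.467). Further listed genes were too low to test. Over the controls and over shACSL4, Nlrp3 had 4 and 4 counts, Pycard 17 and 16, Nlrc4 9 and 21 and Il1b 4 and 2.

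A broad list was taken around the ubiquitin-like conjugation that directs these GTPases to vacuoles. Of its 16 tested genes, 5 were higher (15.4% of all tested genes were) and 0 lower, with a median of 0.10. Trim21 rose by 1.40 on the log2 scale, Ube2l6 by 2.16, Gabarap by 0.38 and Gabarapl1 by 0.37 (edgeR adjusted p of 8.91e-07 to 0.00194), and the fifth gene was Rnf213. Trim21, Ube2l6 and Rnf213 are neither Atg conjugation genes nor genes for the lipid-linked proteins. Of the 5 listed genes for the lipid-linked proteins themselves, Gabarap and Gabarapl1 passed the test, and Map1lc3a, Map1lc3b and Gabarapl2 did not (adjusted p of 0.0845 to 0.99). The conjugation genes Atg3, Atg5, Atg7, Atg10, Atg12 and Atg16l1 did not pass either (0.0899 to 0.424). Prenylation and processing of the carboxy-terminal CAAX box, which some GBPs need to reach membranes, had 3 of 8 genes lower (13.6% of all tested genes were), with a median of -0.16. Icmt, which methylates prenylated cysteines, fell by 0.30 (edgeR adjusted p = 0.0062), and Rabggta and Rabggtb, the subunits of the enzyme that prenylates Rab proteins, fell by 0.45 (0.000447) and 0.27 (0.0202). Pggt1b, a subunit of the enzyme that prenylates CAAX proteins, was at 71.5 and 64.1 CPM (0.051). The call of Rabggtb ended without shControl 1 or 2 or shACSL4 2 or 3, with adjusted p up to 0.0988.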

How the data were processed

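Counts per gene, as deposited by the authors, were used for every test. Per the submitters' processing notes, CASAVA, HISAT2, DESeq2 and the GRCm39 build were used, while the sources used here do not give the counting program, annotation release or strandedness. The FPKM values were made by the authors with a gene length that was not given, and were used only to compare levels between genes. The log2 fold changes and their p-values in the deposited table are the authors' own. All 6 libraries were used, and 0 per-sample columns were left out.

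Testing used R 4.3.3 and edgeR 4.0.16 (quasi-likelihood, robust, TMM scaling), with a two-sided comparison of the groups and no covariate. The edgeR expression filter (minimum count 10, minimum total 15) left 14289 genes, over which Benjamini-Hochberg adjustment was made, and 0.05 was the threshold. Standard errors were obtained from the log2 fold change and the F statistic. A count of 0 allows up to 3 counts, or 0.0634 to 0.0734 CPM, which covers counting error only. The alternatives were DESeq2 1.42.0, limma-voom (limma 3.58.1), other scalings and filters, protein-coding genes only, a block for the replicate number, and leaving out each library. The workflow was tested on simulated data.

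Shared windows were counted between GENCODE M21 transcripts by gene identifier. The named genes were all Gbp genes, Acsl4, Irf1, Casp4, the 4 genes of smallest adjusted p in each list and the 5 of nearest profile, and 1 gene that the rule takes is not reported here. Cell type markers and other genes named beyond the rule were picked after their values were seen. The members and lists were chosen with earlier results of these data known. Protein features were not analysed here.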

Additional observations from a re-analysis of the deposited data

How the results depend on the processing

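All 8 members kept their direction and call under each alternative in which they were tested. For Gbp5 and Gbp8 this carries no weight, because they passed the filter on low counts only through the shACSL4 libraries. The other 6 members reached the filter level in every control. Gbp8 was not tested under the stricter filter, where 7 members were higher. The median log2 fold change of the members ran from 2.81 to 3.15 over the 14 alternatives. The highest adjusted p of any member was 0.0323, for Gbp3 without shControl 2. Over the libraries left out in turn, the number of all genes called lower ran from 1252 (without shACSL4 3) to 2659 (without shControl 3), against 1950, and fewer libraries enter those fits.

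Of 38 single genes followed, 30 changed neither call nor direction. Gbp10, Opa1, Dnm1 and Rabggtb lost their calls under some alternatives, Ifnar1, Mfn1 and Pggt1b gained one under some, and the log2 fold change of Ifnar2 ran from -0.0202 (without shACSL4 1) to 0.184 (without shACSL4 2). The cause was not tested. The replicate numbers were not taken as pairs in the main fit. Same-numbered libraries of the 2 groups had correlations of 0.0637 to 0.126 in their deviations from the group means. Libraries of unlike number had -0.116 to 0.0463, and 6 of 6 libraries correlated best with their own number. An effect shared by same-numbered libraries was not tested. With the replicate block 2616 genes were higher and 2547 lower, and 8 members were higher. The order of the members by level was not recomputed per kilobase, because no gene length was used here. Among the tested Gbp genes, depth limits Gbp5, Gbp8 and Gbp10 most, which had 23, 12 and 8 counts over the 3 controls.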
